A study of Mus musculus with 6 samples.

Results

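Progesterone prepares the lining of the uterus to receive an embryo, and part of that work is done by genes it switches on in the epithelium. A set of 9 such genes was followed here in luminal epithelium that lacked Foxo1: Ihh, Calca, Fst, Il13ra2, Acod1, Adgrg2, Nrip1, Zbtb16 and Fkbp5. They were picked by symbol from the 24964 genes of the deposited expression table, without using any measured value, and all 9 have a row. The heading "progesterone-induced" comes from general knowledge of the uterus, since no sample of this comparison was given or denied the hormone.

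Progesterone binds its receptor PGR, a transcription factor of the nuclear receptor family, which then acts on target genes together with cofactors. In the mouse, PGR rises in the luminal epithelium in the first days of pregnancy and is lost from it around the time the embryo attaches, while it stays in the stroma beneath. Epithelial PGR drives secreted signals, of which IHH is the best known, and these act on the stroma. FOXO1 is a forkhead transcription factor held in check by insulin and growth factor signalling, and in the epithelium it appears in nuclei as PGR is lost.

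RNA was sequenced from luminal epithelium, the cell layer that faces the uterine cavity, taken by laser capture from mated females on pregnancy day 4. The mice were housed until 8 weeks of age. The 3 control samples, Foxo1ff, came from females with the floxed Foxo1 allele (genotype Foxo1f/f) and no Cre. The 3 others, Foxo1dd, came from Pgrcre/+Foxo1f/f females, which carry the same floxed allele and also a Cre gene at Pgr, so deletion follows Pgr expression and is not limited to the luminal epithelium. Because only Foxo1dd mice carry the altered Pgr allele, an effect of that allele and an effect of losing Foxo1 cannot be told apart. The samples of a group are called bioreplicates and the animals that went into each are not described, so a p-value speaks only to the spread among these 6 samples.

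Summed FPKM, the authors' measure of level per length of transcript and per depth, was 613186 to 667499 in Foxo1ff and 552190 to 564628 in Foxo1dd. Foxo1dd 2 had 13995 genes above 0, and the other 5 samples had 15474 to 16062. The steps between low values put the worth of 1 read at 0.0102 to 0.0136 FPKM for a 1 kb transcript, with Foxo1dd 2 the least certain at 26 usable genes. Foxo1 itself, which checks the labels, was at 110.8 to 160.0 FPKM in the controls and at 0.942 to 1.72 FPKM in Foxo1dd. Defining epithelial markers were present in both groups, with Epcam at 554.5 ± 50.1 against 393.3 ± 11.6 FPKM (SD, n = 3 each). Their levels were not steady, however. In the test described below, 6 of 14 luminal and pan-epithelial markers rose, 3 fell, Epcam among them, and 5 were not called. Over all tested genes 22.2% rose and 34.2% fell. Krt8, among those that rose, was at 280.1 ± 50.5 against 680.4 ± 49.4 FPKM (SD). The material is bulk RNA, so fewer cells of a type and less RNA per cell cannot be told apart.

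Of the 9 genes, 5 averaged 1 FPKM or more across all samples and were tested with limma over 11427 genes: Ihh, Acod1, Nrip1, Zbtb16 and Fkbp5. Nrip1, Zbtb16 and Acod1 rose in Foxo1dd, 0 fell, and Ihh and Fkbp5 did not pass the test (Benjamini-Hochberg adjusted p under 0.05). Of all tested genes 22.2% rose and 34.2% fell, so 3 of 5 stands above the background share on a very small number. In the same 3 genes every Foxo1dd sample lay above every Foxo1ff sample, which held for 25.3% of tested genes, while 39.0% had every Foxo1dd sample below. The 4 genes under the minimum, Calca, Fst, Il13ra2 and Adgrg2, have values per sample and no test of their own in that fit. Among them Calca and Adgrg2 were lower in every Foxo1dd sample, and Fst and Il13ra2 overlapped. The share of 39.0% covers tested genes only. No such share was taken over genes under the minimum, so these 4 have no background of their own. Over all tested genes the log2 change had a median of -0.15, which became -0.03 when samples were scaled by median of ratios. That scaling changed no call among these 5 genes.

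**Figure D1:**
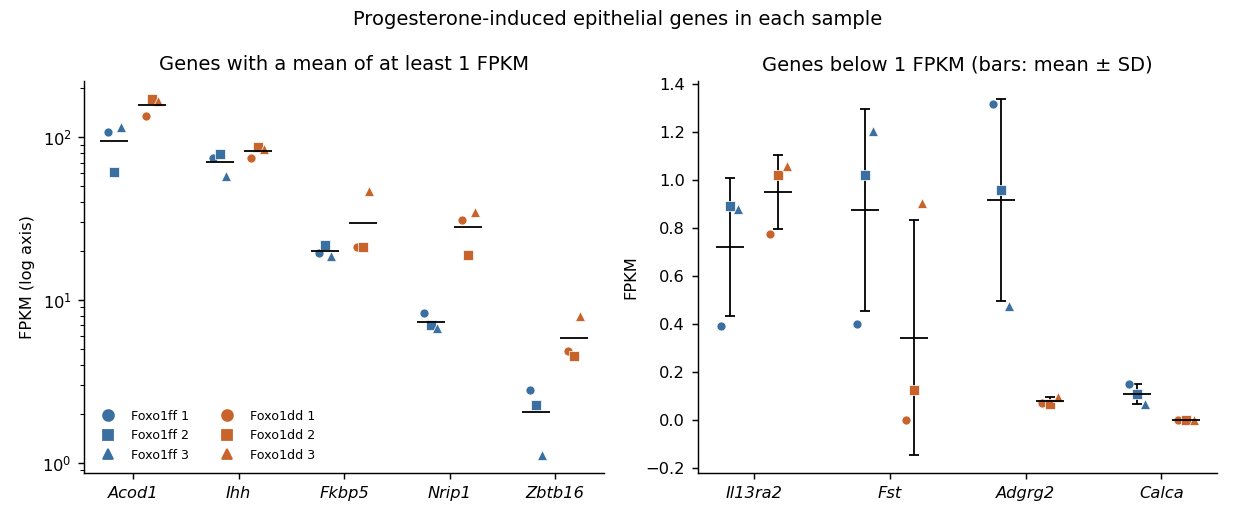
FPKM of the 9 genes in each of the 3 Foxo1ff and 3 Foxo1dd samples (points), with a log axis for the 5 tested genes and a linear axis for the 4 low ones; black bars mark group means, with SD in the low panel only. Nrip1, Zbtb16 and Acod1 separate upward in Foxo1dd, Calca and Adgrg2 separate downward, and the other 4 overlap.

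The upstream sequence of the 2 genes with the largest and the smallest called rise that have one, Nrip1 and Acod1, and of Ihh, the best known epithelial target, is shown to set their start regions side by side. Each run is the 250 bases before a RefSeq start in assembly GRCm38.p6, on the gene's own strand, 5′ to 3′, and capitals mark letter matches on either strand, namely the TATA box (TATAAA), the CCAAT box and the GC box (letters GGGCGG). Nrip1 has a pair of RefSeq starts, and both windows are given. Nrip1 (chr16:76373050-76373299, minus strand) is the CpG-rich one, Nrip1 (chr16:76373828-76374077, minus strand) lies at the outer start, Acod1 is at chr14:103046762-103047011 on the plus strand, and Ihh is at chr1:74951673-74951922 on the minus strand.
Nrip1 inner start: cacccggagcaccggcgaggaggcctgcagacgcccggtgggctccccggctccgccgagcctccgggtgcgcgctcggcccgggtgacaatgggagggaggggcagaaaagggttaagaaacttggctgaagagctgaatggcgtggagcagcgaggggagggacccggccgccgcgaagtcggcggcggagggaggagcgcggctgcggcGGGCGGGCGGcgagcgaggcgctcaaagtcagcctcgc
Nrip1 outer start: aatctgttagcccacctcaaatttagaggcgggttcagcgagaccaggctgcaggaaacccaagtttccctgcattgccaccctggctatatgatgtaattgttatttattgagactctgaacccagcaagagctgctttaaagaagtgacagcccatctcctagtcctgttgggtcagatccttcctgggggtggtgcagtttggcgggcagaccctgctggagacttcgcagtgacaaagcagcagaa
Acod1: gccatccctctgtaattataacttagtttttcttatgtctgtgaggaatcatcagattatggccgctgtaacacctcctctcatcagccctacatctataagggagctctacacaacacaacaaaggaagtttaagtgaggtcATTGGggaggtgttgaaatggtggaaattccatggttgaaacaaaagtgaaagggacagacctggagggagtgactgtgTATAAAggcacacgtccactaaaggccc
Ihh: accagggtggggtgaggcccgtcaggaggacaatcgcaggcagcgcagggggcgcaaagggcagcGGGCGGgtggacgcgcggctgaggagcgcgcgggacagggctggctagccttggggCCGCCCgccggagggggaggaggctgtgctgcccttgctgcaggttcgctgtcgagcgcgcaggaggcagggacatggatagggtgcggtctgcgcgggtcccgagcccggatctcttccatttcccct

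The start regions were of unlike kinds. GC content was 73.6% with 32 CpG pairs at the inner Nrip1 start and 72.0% with 24 at Ihh, but 44.4% with 2 at Acod1 and 51.2% with 4 at the outer Nrip1 start. The medians over 32851 promoter windows were 52.4% and 6. Acod1 has a TATAAA 28 bases before its RefSeq start, and Ihh and the inner Nrip1 window have GGGCGG matches. The GENCODE start of Acod1, at 103046977, lies inside its window and before that TATAAA, so the 2 annotations differ on the start. Over the 7 genes with an entry (8 windows), TATAAA was found in 2 windows, against 12.4% of all promoters, GGGCGG in 4 (32.7%) and CCAAT in 4 (33.8%). The letters TGTTCT (a steroid receptor half-site, 16.1% of promoters), ACANNNTGT (a receptor palindrome core, 5.8%) and TGTTTAC (a forkhead site, 3.2%) were in 0 of the 8 windows. That says only that these letters are absent from these windows. Fst and Zbtb16 had no entry.

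Ihh (chr1:74945315-74951672, minus strand; GENCODE M21 on GRCm38 for this and all gene positions below) encodes Indian hedgehog, the secreted ligand through which the progesterone-stimulated epithelium signals to the stroma. It read 74.1, 79.4 and 57.6 in Foxo1ff and 74.1, 87.5 and 84.5 FPKM in Foxo1dd. Foxo1ff 3 was the lowest sample, and the lowest Foxo1dd sample lay within the control range, so the groups overlap. The means were 70.4 ± 11.4 and 82.0 ± 7.01 FPKM (SD, n = 3 each). Its log2 change was 0.23 ± 0.15 (SE), with a 95% interval of -0.10 to 0.56 and a limma adjusted p of 0.211. Without Foxo1ff 3 the log2 change was 0.09.

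The hedgehog pathway around Ihh had 18 listed genes, 8 of them tested. Gas1, Cdon and Nr2f2 rose, Disp1 fell and 4 were not called, and the median log2 change was 0.12. Counts for this and every later list stand beside the 22.2% of all tested genes that rose and the 34.2% that fell, and nothing particular to a list is read from them. Gas1, a hedgehog co-receptor, read 3.97, 3.56 and 3.27 in Foxo1ff and 7.57, 7.25 and 6.56 FPKM in Foxo1dd (log2 change 0.82 ± 0.15 SE, adjusted p = 0.00152). Cdon, another co-receptor, went from 8.02 ± 1.53 to 19.0 ± 6.76 FPKM (SD; adjusted p = 0.00449). Disp1, which releases the lipid-bearing ligand from the producing cell, went from 17.3 ± 4.35 to 8.35 ± 2.60 FPKM (SD; adjusted p = 0.00637). The receptor and target gene Ptch1 stood at 11.4 ± 2.79 and 14.2 ± 2.06 FPKM (SD; adjusted p = 0.188), and passed only under median-of-ratios scaling (adjusted p = 0.0471) and quantile normalization.

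The responding side of the pathway was mixed in level. Ptch1, given above, and Smo (28.4 ± 1.7 in Foxo1ff and 26.8 ± 0.35 FPKM in Foxo1dd, SD) lay above the minimum of 1 FPKM. Gli1, Gli2 and Gli3 lay below it in every sample. The target gene Gli1 read 0.122, 0.194 and 0.231 in Foxo1ff and 0.301, 0.229 and 0.405 FPKM in Foxo1dd, which overlap. Shh, another hedgehog ligand, was listed at 0 in all 6 samples. Nr2f2, the stromal factor COUP-TFII that lies downstream of IHH, was at 22.0 ± 1.29 and 28.9 ± 3.45 FPKM (SD; adjusted p = 0.0362). Its call was lost under the replicate block, without the filter and on leaving out any sample but Foxo1dd 2, with adjusted p up to 0.110. Nr2f2 is itself a stroma marker. Of the 10 tested stroma markers Sparc, Col3a1 and Nr2f2 rose and 0 fell, and Sparc and Col3a1 also lost their calls without the filter (adjusted p = 0.0786 and 0.111) and on leaving out several of the samples. Col1a1, Dcn, Vim and Hand2 were among the 7 not called. Without Nr2f2, the summed level of the other 13 was 15.9 to 21.2 in Foxo1ff and 17.1 to 30.5 FPKM in Foxo1dd. Their part in the Nr2f2 value was not tested. Without the filter Cdon (adjusted p = 0.0641) and Disp1 (0.0734) were not called either.

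Calca (chr7:114631478-114636357, minus strand) encodes calcitonin and, by alternative splicing, the peptide CGRP, and calcitonin is a classic progesterone-induced product of the receptive uterus. It was the lowest of the 9 genes: 0.148, 0.107 and 0.064 FPKM in Foxo1ff, and listed at 0 in all 3 Foxo1dd samples. All Foxo1ff samples were above all Foxo1dd samples. For its exon length of 1.68 kb in the annotation, 1 read was worth about 0.0060 to 0.0081 FPKM. No fold is given against a group listed at 0. In the fit without the filter, where 14.0% of 24964 genes fell, its adjusted p was 0.0277 on a log2 change of -0.15 ± 0.03 (SE). The annotation gives it 7 transcripts, and a value per gene does not separate calcitonin from CGRP.

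Some other genes of calcitonin-type signalling were lower as well. Of 10 listed, 4 were tested, 3 fell, 0 rose and 1 (Crcp) was not called. Ramp3, which pairs with calcitonin-type receptors and sets their ligand preference, read 14.4, 20.3 and 17.8 in Foxo1ff and 1.39, 1.84 and 4.21 FPKM in Foxo1dd. On the log2 scale the change was -2.48 ± 0.28 (SE; adjusted p = 7.85e-05). Ramp2, of the same family, read 7.74, 6.21 and 5.53 FPKM against 1.10, 0.279 and 0.945 FPKM (log2 change -2.10 ± 0.23 SE, adjusted p = 6.80e-05). Adm, the related peptide adrenomedullin, went from 11.98 ± 1.11 to 3.78 ± 1.78 FPKM (SD; adjusted p = 0.00107). The receptor genes themselves were scarce: Calcr was listed at 0 in every sample, and Calcrl ranged from 0.114 to 0.432 FPKM over the 6. Ramp1, under the minimum, read 0.074, 0.034 and 0.136 in Foxo1ff and 0.034, 0.009 and 0.125 FPKM in Foxo1dd, which overlap.

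Fst (chr13:114452290-114458951, minus strand) encodes follistatin, a secreted protein that binds and neutralizes activins. It read 0.4, 1.02 and 1.20 in Foxo1ff and 0, 0.123 and 0.905 FPKM in Foxo1dd. Foxo1dd 3 lay inside the control range, and the other Foxo1dd samples below it, so the groups overlap. Its log2 change was -0.51, and in the fit that admitted means down to 0.1 FPKM its 95% interval was -1.13 to 0.10 with an adjusted p of 0.143. Without Foxo1dd 1 the log2 change was -0.33, and without Foxo1dd 3 it was -0.80. In GENCODE 115 of its exon bases also lie in Gm47040 on the opposite strand, and whether the counting used strand is not given in the sources used here.

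Among 18 activin, inhibin and BMP genes, 11 were tested, 2 rose, 6 fell and 3 were not called, with a median log2 change of -0.30. Inhbb, the beta B subunit shared by activin B and inhibin B, read 17.4, 21.8 and 18.8 in Foxo1ff and 3.69, 3.38 and 4.35 FPKM in Foxo1dd. Its log2 change was -2.08 ± 0.15 (SE; adjusted p = 6.86e-06), and its mean level was 5.08-fold lower. Smad3, a transducer of activin signals, went from 60.1 ± 10.7 to 24.9 ± 4.30 FPKM (SD; adjusted p = 0.000265). Smad2, its partner, went from 14.8 ± 2.62 to 8.41 ± 0.937 FPKM (SD; adjusted p = 0.00449), and the BMP receptor Bmpr1a from 47.2 ± 0.831 to 32.2 ± 3.61 FPKM (SD; adjusted p = 0.00451). Acvr1, a type I receptor, moved the other way, from 9.35 ± 1.77 to 28.3 ± 2.52 FPKM (SD; log2 change 1.51 ± 0.16 SE, adjusted p = 5.65e-05). Fstl3, a relative of Fst named here after its values were seen, lay under the minimum at 1.04, 0.867 and 0.699 FPKM against 0.073, 0.021 and 0.133 FPKM.

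Il13ra2 (chrX:147383476-147429192, minus strand) encodes a receptor that binds interleukin-13 tightly and is regarded mainly as a decoy. It read 0.389, 0.894 and 0.881 in Foxo1ff and 0.773, 1.02 and 1.06 FPKM in Foxo1dd. Foxo1ff 1 was the lowest, and the other 2 control samples lay within the Foxo1dd range. The means of 0.721 ± 0.288 and 0.950 ± 0.155 FPKM (SD, n = 3 each) put it just under the test minimum. In the fit from 0.1 FPKM its log2 change of 0.19 had a 95% interval of -0.19 to 0.57 (adjusted p = 0.367). Without Foxo1ff 1 the log2 change was 0.04.

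The signalling receptors for the same cytokines did change, in opposite directions. Of 11 listed genes of the IL-4 and IL-13 pathway 8 were tested, 6 rose, 1 fell and 1 was not called, with a median log2 change of 0.74. The gene that fell was Il13ra1, the signalling IL-13 receptor chain, at 36.7, 40.5 and 46.3 in Foxo1ff and 23.5, 24.5 and 20.2 FPKM in Foxo1dd (log2 change -0.83 ± 0.14 SE, adjusted p = 0.000775). Il4ra, the chain it pairs with, went from 12.1 ± 0.449 to 21.3 ± 5.21 FPKM (SD; adjusted p = 0.00549). Jak2, a kinase of cytokine receptors, read 125.7, 61.3 and 98.0 FPKM against 261.4, 209.5 and 320.3 FPKM (adjusted p = 0.000891). The feedback inhibitors Socs3 and Socs1 rose 2.73-fold and 2.69-fold in level (adjusted p = 0.00587 and 0.00622), and lost their calls without the filter (0.0766 and 0.0799). Il4 and Il13 were listed at 0 in all 6 samples.

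Adgrg2 (chrX:160390690-160498070, plus strand) is an adhesion G protein-coupled receptor known from epithelia that move fluid. It gave the largest ratio that could be computed among the low genes, as Calca has none. It read 1.32, 0.957 and 0.476 in Foxo1ff and 0.071, 0.066 and 0.095 FPKM in Foxo1dd. All Foxo1dd samples lay below all Foxo1ff samples, and the mean level was 11.9-fold lower (0.917 ± 0.422 against 0.0773 ± 0.0155 FPKM, SD, n = 3 each). Its mean over the 6 samples missed the minimum of 1 FPKM. With the minimum set at 0.1 FPKM, an alternative chosen after the values were seen, it was called with a log2 change of -0.81 ± 0.17 (SE; adjusted p = 0.00473), where 29.7% of 14310 tested genes fell. It was also called without any filter (adjusted p = 0.0348). The annotation places 137 of its exon bases in Gm15241 on the opposite strand.

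Some gland markers moved with Adgrg2 and Calca between the groups. Of 4 tested gland markers Spink1, Prss28 and Prss29 fell and Lif rose. Without the filter Prss28, Prss29 and Lif were not called (limma adjusted p = 0.121, 0.141 and 0.157). Lif also lost its call on leaving out Foxo1ff 1 or Foxo1dd 1. The summed level of the 8 listed was 52.0 to 210 in Foxo1ff and 1.21 to 6.82 FPKM in Foxo1dd. Most of that sum was Spink1, and without it the sums were 3.81 to 31.6 and 1.14 to 6.82 FPKM, which overlap. The gland factor Foxa2, under the test minimum, read 0.643, 0.83 and 1.36 FPKM against 0.908, 0.399 and 0.626 FPKM, which also overlap. Aldh1a1 was at 0.147 ± 0.0873 and 0.453 ± 0.399 FPKM (SD), Cxcl15 at 0 in Foxo1ff and up to 0.166 FPKM in Foxo1dd, and Ttr at 0 in every sample. Within Foxo1ff the gland marker Spink1 was highest in Foxo1ff 3, at 178.4 FPKM against 44.2 and 57.2 FPKM, and Adgrg2 and Calca were both lowest there. The part of gland cells in their change was not tested. Among 22 other adhesion receptors 8 were tested, 3 rose, 3 fell and 2 were not called. Adgrg1, the most abundant of them in Foxo1ff, fell from 132.3, 108.1 and 92.1 FPKM to 26.5, 22.5 and 23.4 FPKM (log2 change -2.14 ± 0.15 SE, adjusted p = 5.38e-06). Adgrl2 and Adgra3 fell 3.32-fold and 4.09-fold in level (adjusted p = 2.76e-05 and 3.85e-05), and Adgrf5 rose 2.67-fold (0.00458).

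Acod1 (chr14:103046977-103056573, plus strand), also called Irg1, makes itaconate from an intermediate of the citrate cycle, and in the uterus its transcript rises under progesterone before implantation. It was the most abundant of the 9 genes in both groups, at 108.3, 61.1 and 115.6 in Foxo1ff and 134.9, 172.3 and 166.5 FPKM in Foxo1dd. All Foxo1dd samples exceeded all Foxo1ff samples, among which Foxo1ff 2 was low. The mean level rose 1.66-fold, from 95.0 ± 29.6 to 158 ± 20.1 FPKM (SD, n = 3 each). Its log2 change was 0.77 ± 0.23 (SE), with a 95% interval of 0.25 to 1.29 and an adjusted p of 0.0177. Without Foxo1ff 2 the log2 change was 0.48 (adjusted p = 0.0357), and without the filter on low genes it was not called (adjusted p = 0.144).

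Genes of the citrate pathway near Acod1 mostly rose: of 11 tested, 6 rose, 2 fell and 3 were not called, with a median log2 change of 0.67. Cs, citrate synthase, rose from 121 ± 11.3 to 238 ± 17.2 FPKM (SD; adjusted p = 0.000129). Slc25a1, the mitochondrial citrate carrier, read 35.3, 34.7 and 35.8 in Foxo1ff and 126.0, 149.7 and 134.2 FPKM in Foxo1dd (log2 change 1.92 ± 0.11 SE, adjusted p = 1.85e-06). Slc25a10, the dicarboxylate carrier, rose 4.67-fold in level (adjusted p = 1.15e-06). Slc13a5, a plasma membrane citrate transporter, went from 0.292 ± 0.430 to 133 ± 37.5 FPKM (SD; adjusted p = 3.64e-07). Idh1, the cytosolic isocitrate dehydrogenase, rose from 1.31 ± 0.374 to 4.57 ± 1.03 FPKM (SD; adjusted p = 0.000891).

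Acod1 is best known from activated macrophages and neutrophils. Of 10 tested leukocyte markers 8 fell and 2 rose (Laptm5 and Cd68), and Ptprc, the pan-leukocyte marker, fell from 3.59 ± 0.568 to 0.294 ± 0.0676 FPKM (SD; adjusted p = 4.32e-05). Without the filter Cd68, Csf1r, C1qb, Lyz2 and Fcer1g were not called. Cd68 also lost its call on leaving out any sample but Foxo1dd 1. The summed level of the 15 leukocyte markers was 56.0 to 104.8 in Foxo1ff and 82.8 to 98.0 FPKM in Foxo1dd, of which Laptm5 alone made up 2.73 to 5.78 and 53.2 to 70.7 FPKM. Without Laptm5 the sums were 50.2 to 101.2 and 21.1 to 29.6 FPKM. Of 13 neutrophil markers 1, Ly6g, was tested and rose, 6 were at 0 in all samples (S100a8, Elane, Camp, Ngp, Retnlg and Mmp9), and their sum was 0.442 to 0.884 FPKM against 1.19 to 4.37 FPKM. The part of leukocytes in the Acod1 values was not tested.

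Nrip1 (chr16:76287400-76373827, minus strand) encodes RIP140, a cofactor that binds nuclear receptors carrying their hormone and mostly represses. It changed more than any other of the 9 genes by the log2 scale used. It read 8.32, 7.04 and 6.74 in Foxo1ff and 31.1, 19.0 and 34.5 FPKM in Foxo1dd, with Foxo1dd 2 the lowest of its group and still above every control. The mean level rose 3.83-fold, from 7.37 ± 0.842 to 28.2 ± 8.16 FPKM (SD, n = 3 each). On the log2 scale the change was 1.76 ± 0.22 (SE), with a 95% interval of 1.28 to 2.25 and an adjusted p of 0.000127. It was called under every alternative run. Among tested genes its level went from the percentile 31.1 in Foxo1ff to 71.3 in Foxo1dd.

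The other nuclear receptor cofactors gave few calls. Of 13, all tested, 1 rose, 1 fell and 11 were not called, and their median log2 change was -0.04. Hdac3, the deacetylase of the corepressor complexes, rose from 44.0 ± 3.08 to 75.6 ± 6.76 FPKM (SD; adjusted p = 0.000548). Ncoa3, a p160 coactivator, went from 10.8 ± 2.51 to 6.57 ± 0.970 FPKM (SD; adjusted p = 0.0197), a call lost without the filter and on leaving out Foxo1ff 1, Foxo1ff 2 or Foxo1dd 1 (adjusted p up to 0.0949). The corepressor Ncor1 was not called (adjusted p = 0.104), but passed under median-of-ratios scaling (0.0287).

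Zbtb16 (chr9:48654297-48836222, minus strand) encodes PLZF, a BTB zinc finger repressor induced by progesterone and glucocorticoids in many tissues. It read 2.78, 2.25 and 1.11 in Foxo1ff and 4.88, 4.53 and 8.01 FPKM in Foxo1dd. All Foxo1dd samples lay above the controls, and the highest was Foxo1dd 3. The mean level rose 2.83-fold, from 2.05 ± 0.853 to 5.80 ± 1.92 FPKM (SD, n = 3 each). On the log2 scale the change was 1.16 ± 0.27 (SE), with a 95% interval of 0.56 to 1.77 and an adjusted p of 0.00529. It was not called without the filter (adjusted p = 0.0684). Zbtb16 lies on the chromosome of Pgr, 39.7 Mb away, where Foxo1dd mice carry the Cre allele, and the part of linked sequence was not tested.

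Of 28 tested BTB zinc finger genes 6 rose, 6 fell and 16 were not called, with a median log2 change of -0.05. With samples scaled by median of ratios, 8 were called higher and 5 lower. Zbtb7c fell from 5.34 ± 0.873 to 0.0963 ± 0.0834 FPKM (SD; adjusted p = 7.45e-06), and Zbtb10 fell 2.85-fold in level (adjusted p = 0.000101). Zbtb8a and Zbtb7b rose 2.27-fold and 1.64-fold (adjusted p = 0.000513 and 0.00164). Zbtb44 fell 1.93-fold (adjusted p = 0.00271).

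Fkbp5 (chr17:28399094-28517527, minus strand) encodes FKBP51, a co-chaperone of HSP90 that lowers the hormone affinity of steroid receptors and is itself induced by them. It read 19.5, 21.8 and 18.6 in Foxo1ff and 21.2, 21.1 and 46.9 FPKM in Foxo1dd. Foxo1dd 1 and 2 lay within the control range, and Foxo1dd 3 alone stood above it, at 2.22 times the mean of the other 2. The log2 change was 0.45 ± 0.27 (SE), with a 95% interval of -0.17 to 1.08 and an adjusted p of 0.189. Without Foxo1dd 3 it was 0.08 (adjusted p = 0.663).

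The list of chaperones and immunophilins around Fkbp5 had 16 tested genes, of which 12 fell, 0 rose and 4 were not called, with a median log2 change of -0.54, and 10 fell under median-of-ratios scaling. Genes of the steroid receptor complex that holds FKBP51, named here after their values were seen, gave calls that turned on the settings. Hsp90ab1, Hsp90aa1 and Ptges3 fell 1.48-fold, 1.64-fold and 1.40-fold in level (adjusted p = 0.0210, 0.0183 and 0.0151). Their calls were lost without the filter, under quantile normalization and on leaving out some samples, with adjusted p up to 0.210, 0.144 and 0.0698. Stip1 (adjusted p = 0.0581) and Dnajb1 (0.0739) were not called. Fkbp4, which encodes FKBP52, the immunophilin that raises PGR activity and opposes FKBP51, was at 476.7, 380.4 and 360.8 in Foxo1ff and 503.5, 475.4 and 403.2 FPKM in Foxo1dd, which overlap. The falls with the smallest p were in immunophilins not known as parts of that complex, with Ppid as the exception. Fkbp1a, the target of the drug FK506, fell from 931 ± 61.6 to 161 ± 6.53 FPKM (SD; adjusted p = 5.65e-07). Fkbp11, an immunophilin of the endoplasmic reticulum, fell from 107 ± 8.23 to 2.27 ± 1.43 FPKM (SD; adjusted p = 9.18e-07). Fkbp2, Ppid and Fkbp1b fell 1.83-fold, 1.99-fold and 10.8-fold in level (adjusted p = 0.000317, 0.000465 and 0.000542).

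**Figure D2:**
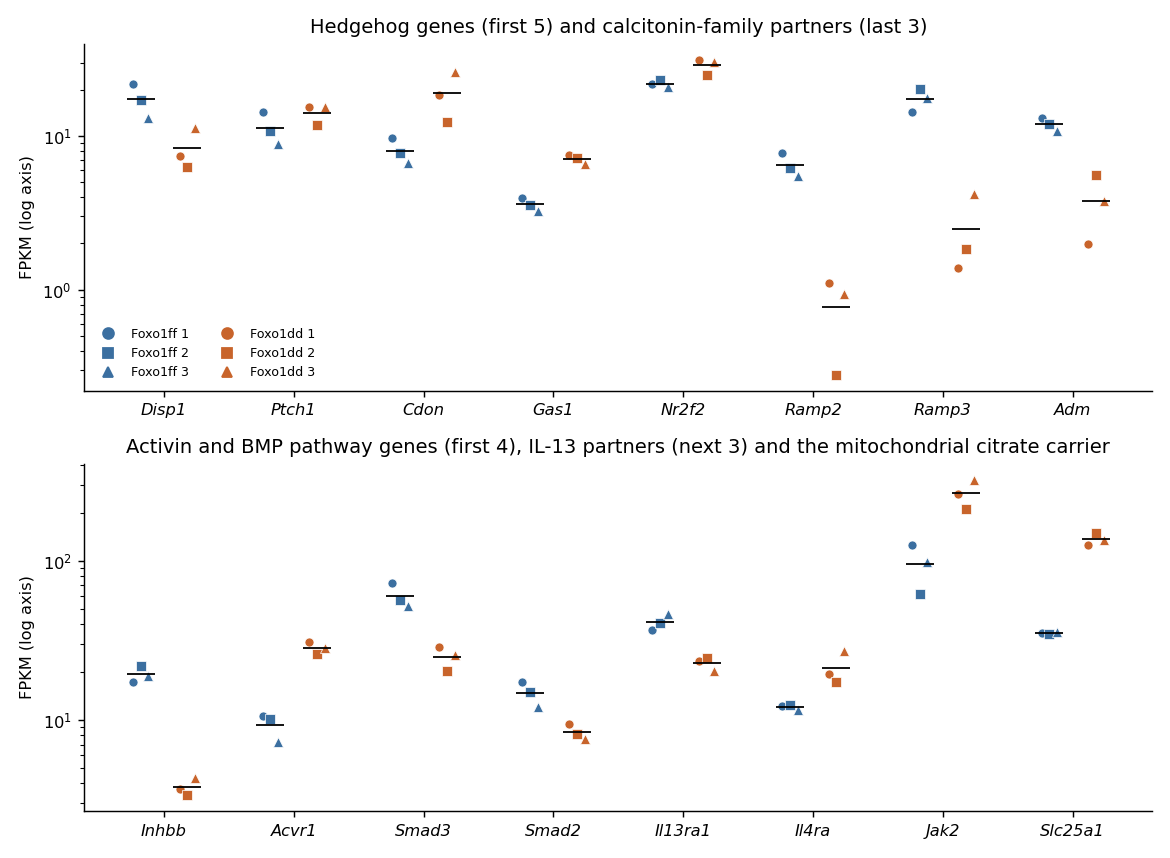
FPKM (log axis) in each sample for genes that work with the 9, from the hedgehog, calcitonin, activin and BMP, and IL-13 pathways and citrate transport, with points for the 3 Foxo1ff and 3 Foxo1dd samples and bars for group means. Ramp2, Ramp3 and Inhbb lie lower in every Foxo1dd sample, Gas1, Acvr1 and Slc25a1 lie higher, and Ptch1 overlaps.

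**Figure D3:**
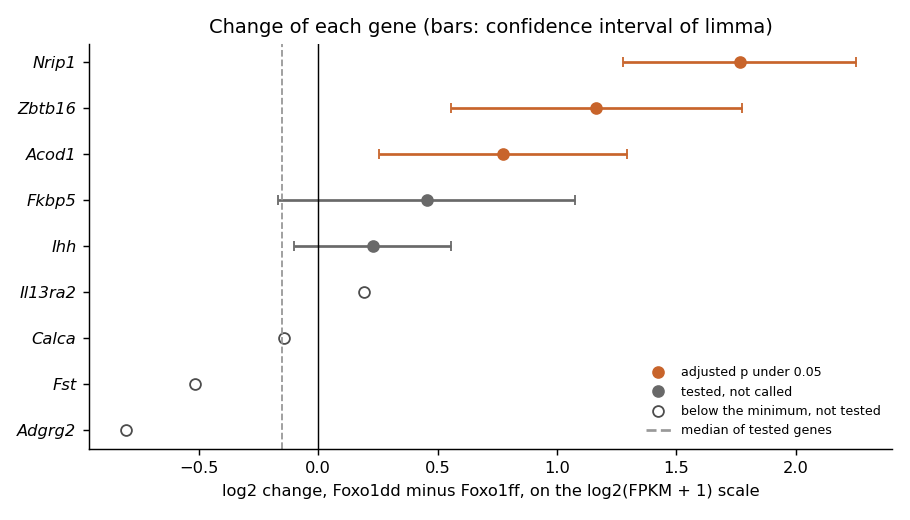
Log2 change of each of the 9 genes (Foxo1dd minus Foxo1ff, on log2(FPKM + 1)), with the 95% interval of the limma fit for the 5 tested genes, open points for the 4 that were not tested and a dashed line at the median of all tested genes (-0.15). The intervals of Nrip1, Zbtb16 and Acod1 lie above 0, and those of Ihh and Fkbp5 include it.

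Foxo1dd 3 stood high in more than Fkbp5. Zbtb16 was also highest there, at 1.70 times the mean of the other 2 Foxo1dd samples. The list of 16 genes that answer both glucocorticoid and progesterone receptors, in which Fkbp5 and Zbtb16 are not counted, had 13 of 15 tested genes highest in Foxo1dd 3 (86.7%), against 4215 of 11427 tested genes (36.9%). Their median ratio of Foxo1dd 3 to the mean of the other 2 was 1.638, and over all tested genes it was 1.038. The lean to Foxo1dd 3 was not limited to that list. The share highest there was 61.5% of 13 nuclear receptor cofactors and 61.1% of 18 other uterine progesterone-responsive genes (median ratios 1.182 and 1.417). Among 16 chaperones it was 25.0% (0.854). Dusp1, a phosphatase of MAP kinases, read 6.36, 5.92 and 15.5 FPKM over Foxo1dd 1 to 3. Per1, a clock gene with a glucocorticoid response, read 15.03, 9.69 and 24.9 FPKM, and Nfkbia, the inhibitor of NF-kappa-B, 166.1, 101.3 and 250.5 FPKM. Other genes of the list stood little higher there. Klf9 read 23.33, 15.19 and 23.36 FPKM over Foxo1dd 1 to 3. The ratio of Foxo1dd 3 to the mean of the other 2 was 1.21 for Klf9 and 1.1 for Tsc22d3, and 2.52 for Dusp1. Dusp1, Per1, Nfkbia and Klf9 were named after their values were seen, and the labels give nothing that sets Foxo1dd 3 apart. Nrip1 was also highest in Foxo1dd 3, but without it the log2 change of Nrip1 was 1.60 (adjusted p = 0.000354), and that of Zbtb16 was 0.94 (adjusted p = 0.0162).

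**Figure D4:**
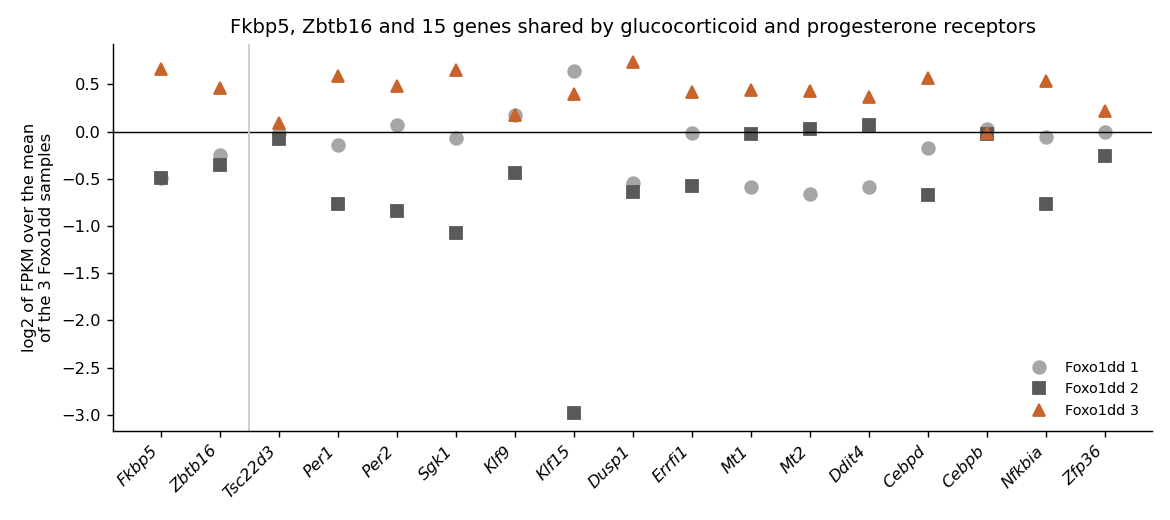
Each Foxo1dd sample as log2 of its FPKM over the mean of the 3 Foxo1dd samples, for Fkbp5, Zbtb16 and the 15 tested genes shared by glucocorticoid and progesterone receptors. Fkbp5 and 13 of the 15 shared genes are highest in Foxo1dd 3.

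Between the groups the same shared list was mixed: 7 of 15 tested rose, 3 fell and 5 were not called, with a median log2 change of 0.52. Tsc22d3, the glucocorticoid-induced leucine zipper, read 8.32, 4.43 and 6.27 in Foxo1ff and 44.0, 41.9 and 47.3 FPKM in Foxo1dd (log2 change 2.66 ± 0.19 SE, adjusted p = 6.22e-06). Sgk1, a kinase that regulates epithelial sodium transport and is also known as a FOXO regulator, read 127.0, 141.7 and 121.5 FPKM against 6.21, 3.10 and 10.3 FPKM (log2 change -4.24 ± 0.31 SE, adjusted p = 6.13e-06). The metallothionein Mt1 rose 2.72-fold in level (adjusted p = 0.00167), and Cebpb, a transcription factor of the C/EBP family, fell 2.38-fold (adjusted p = 5.91e-05). Zfp36, which destabilizes inflammatory transcripts, rose 2.40-fold (adjusted p = 0.000108).

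The receptors that could act on these genes differed in how much they moved. Pgr rose from 2.44, 1.64 and 2.02 FPKM to 36.2, 29.9 and 28.3 FPKM (log2 change 3.42 ± 0.16 SE, adjusted p = 7.45e-07), and a value per gene does not say whether reads came from the altered allele. The glucocorticoid receptor gene Nr3c1 was at 1.89 ± 0.235 and 1.56 ± 0.503 FPKM (SD; adjusted p = 0.450), and the oestrogen receptor gene Esr1 at 70.3 ± 2.39 and 87.1 ± 29.2 FPKM (SD; adjusted p = 0.403). Neither was called, but Esr1 read 107.3, 53.5 and 100.3 FPKM over Foxo1dd 1 to 3 and was called as higher on leaving out Foxo1dd 2 (adjusted p = 0.00356). Of 18 tested genes on a further list of uterine progesterone-responsive genes, 11 rose, 4 fell and 3 were not called, with a median log2 change of 1.81. Hdc, which makes histamine, rose 8.86-fold in level, and Cyp26a1, which degrades retinoic acid, fell 4.61-fold (adjusted p = 1.15e-06 and 5.00e-06). Between them in order of p came 3 rises. Lrp2, Edn1 and Sox17 rose 18.2-fold, 6.26-fold and 5.82-fold (adjusted p = 1.70e-06, 2.17e-06 and 2.80e-06). Genes known to answer progesterone rose and fell in the same comparison, and on this list more rose than fell.

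**Figure D5:**
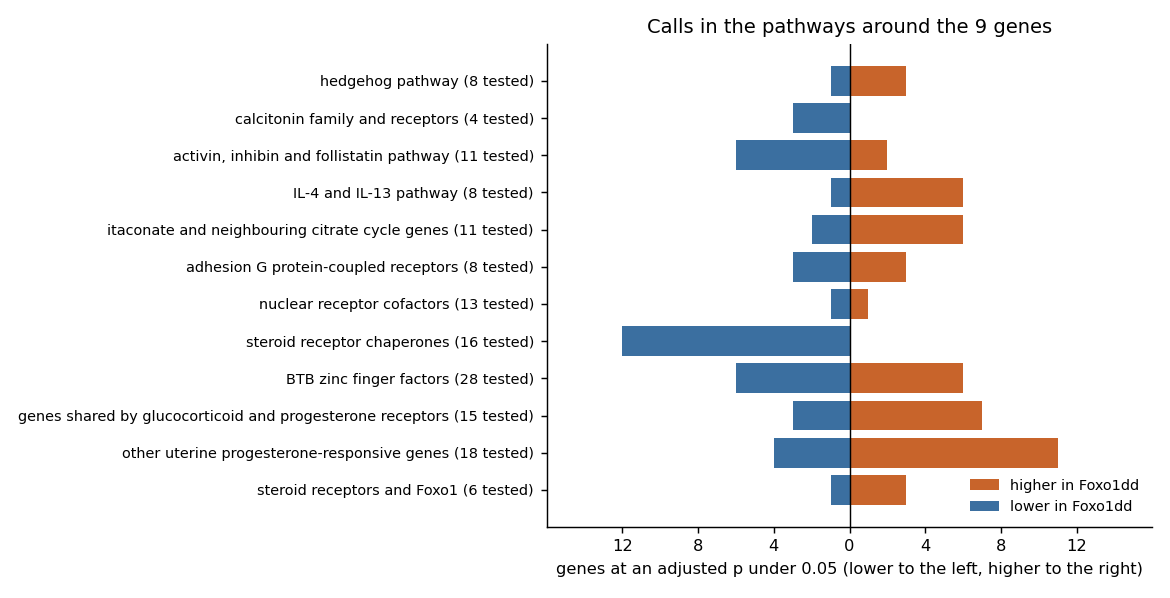
Number of tested genes that rose (bars to the right) or fell (bars to the left) in each of the 12 lists around the 9 genes (limma, adjusted p under 0.05), with the number tested in the label. The nuclear receptor cofactors gave 1 in each direction, 12 of 16 chaperones fell, and 6 of 8 IL-4 and IL-13 pathway genes rose.

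The levels of the 9 genes spanned from Acod1 at the top to Calca at the bottom in both groups. In Foxo1ff, Acod1 at 95.0 FPKM and Ihh at 70.4 FPKM overlapped, followed by Fkbp5 at 20.0 FPKM and Nrip1 at 7.37 FPKM, each apart from its neighbours. Zbtb16 at 2.05 FPKM overlapped Adgrg2, which in turn overlapped Fst and Il13ra2, and Calca came last and apart. In Foxo1dd, Acod1 at 158 FPKM and Ihh at 82.0 FPKM no longer overlapped, Nrip1 at 28.2 FPKM overlapped Fkbp5 at 29.8 FPKM, and Adgrg2 stood below Il13ra2. The spread within a group also differed by gene: the highest Foxo1dd sample was 1.18 times the lowest for Ihh and 2.22 times for Fkbp5, and in Foxo1ff the ratio was 1.24 for Nrip1 and 2.5 for Zbtb16.

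The tested genes whose level across the 6 samples was most like each of these differed from gene to gene. By Pearson's r of log2(FPKM + 1) over 6 samples, the nearest to Nrip1 were Nup155 and Fnbp4 (r = 0.999 each), and those nearest to Zbtb16 were Epas1 (0.996) and Arfgap2 (0.995). Those nearest to Acod1 were Spr (0.975) and Setmar (0.958), those nearest to Ihh were H1fx (0.986) and Zfp524 (0.982), and those nearest to Fkbp5 were Xpnpep1 (0.989) and Emd (0.988). With 11427 candidates and 6 points in 2 groups, high values of r are easily reached, and these are a description only.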

How the data were processed

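RNA-seq of laser-captured luminal epithelium was used from 3 Foxo1ff and 3 Foxo1dd samples. Levels were taken as FPKM from the deposited table, as the authors had normalized them. The submitters' processing notes list DESeq2 1.12.4, edgeR 3.28.0, STAR 2.5.2b, Subread, featureCounts 1.5.0-p1 and build mm10 without saying what each did. For the annotation, gene lengths, strand setting and multi-mapping reads, the answer is "not given in the sources used here".

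FPKM is not a count, so log2(FPKM + 1) was fitted on genotype alone in limma 3.58.1 (R 4.3.3; eBayes with trend). Genes averaging under 1 FPKM across the samples, 13537 in number, were left out, and p-values were adjusted by Benjamini-Hochberg over all 11427. Log2 changes are Foxo1dd minus Foxo1ff and understate the change of low genes, and folds compare mean FPKM. Single genes got no permutation test, because 3 against 3 cannot reach the threshold. The worth of 1 read was estimated from small RNA genes, with 88.5% to 100% of low values whole to within 0.05 of a read, which corresponds to some 73700000 to 98200000 reads per sample if depth was the only divisor. Promoter windows came from RefSeq, GRCm38.p6, and the TATA, GC and CCAAT letters were added after the first 3 motifs had been searched.

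The genes, lists and tests were chosen with earlier results of these data known. Named genes were the 9, Foxo1, Pgr, up to 5 tested genes of each list with the smallest p and the 2 nearest genes by correlation, and receptor, ligand or partner genes of the lists. Any other was chosen after its values were seen, as were the marker genes named. Alternatives were pseudocounts of 0.1 and 0.5, no filter, minimum means of 0.1 and 5 FPKM, median-of-ratios scaling, quantile normalization, other eBayes settings, a replicate block and leaving out each sample. The minimum of 0.1 FPKM was chosen after seeing the data. The fit was tested on simulated data.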

Additional observations from a re-analysis of the deposited data

How the results depend on the processing

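Without a filter on low genes, the number of the 9 genes that rose went from 3 to 1 and the number that fell from 0 to 2. Acod1 (log2 change 0.77, adjusted p = 0.144) and Zbtb16 (1.16, 0.0684) lost their calls there, and Calca (-0.15) and Adgrg2 (-0.81) gained one; 24964 genes were then tested. A minimum of 0.1 FPKM, chosen after seeing the data, gave 3 that rose and 1 that fell, Adgrg2 (-0.81). With pseudocounts of 0.1 and 0.5 the log2 change was -1.02 and -0.28 for Calca and -2.43 and -1.25 for Adgrg2, and at 0.1 it was -1.68 for Fst and 0.42 for Il13ra2. With a minimum of 5 FPKM, 2 rose, and Zbtb16 was no longer tested. In the other planned settings the counts of 3 and 0 stayed. On leaving out each sample in turn they stayed too, and no log2 change of the 9 genes turned. With the bioreplicate number as a replicate block, counts were 3 and 0 for the 9 genes and 2417 higher and 3724 lower over all genes. Deviations of same-numbered samples had Pearson's r of 0.123, 0.107 and -0.133, so the numbers were not taken to pair the samples. Of 91 calls in the lists, 63 were kept without a filter, 86 under median-of-ratios scaling, 86 under the block and 71 whichever sample was left out. The values of Calca, Fst, Il13ra2 and Adgrg2 turn on the filter or the pseudocount, as given above, and 1 read was worth 0.0019 to 0.0081 FPKM for these genes.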
